A study of Homo sapiens with 10 samples.

Results

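Glycolysis turns glucose into pyruvate and lactate through a fixed series of enzymes, and 10 genes of that series were followed here through PIKFYVE knockdown, PIKfyve inhibition and mTOR inhibition. They were the glucose transporter SLC2A1, the hexokinases HK1 and HK2, the phosphofructokinase subunits PFKL, PFKM and PFKP, the aldolases ALDOA and ALDOC, the enolase ENO2 and the lactate dehydrogenase subunit LDHA. These 10 of 35606 genes were taken by gene name, with earlier results of these data known. They hold the entry, commitment and exit steps of the pathway and some steps between, and several of these steps have more than 1 isoform. All 10 were found in both expression tables, and all 10 passed the filter on low values.

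RNA was sequenced from QGP-1, a human pancreatic neuroendocrine tumor cell line, in 10 samples that fell into 5 groups of 2. In the knockdown table, cells carrying a non-targeting guide (sgNC) were set against cells carrying the single guide sgPIKFYVE_1, a CRISPR interference guide that directs a dCas9-KRAB repressor to the gene for PIKfyve, a lipid kinase of endosomes and lysosomes. In the drug table, cells of the unmodified line received the solvent DMSO, the PIKfyve inhibitor apilimod (Apilimod) at 1 µM or the mTOR kinase inhibitor Torin1 at 100 nM, and the labels give 24 h for both drugs. The paper's text gives a shorter time for the RNA samples, so the time is uncertain. All 10 samples were of 1 cell line, the knockdown rested on 1 guide in lentivirally transduced cells kept by puromycin selection, and the Apilimod and Torin1 groups shared the same 2 DMSO samples. Nothing in the labels says that the 2 samples of a group came from separate cultures, so every p below measures the spread between these samples, which may be technical.

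In the glycolytic sequence, a transporter brings glucose in, hexokinase phosphorylates and so traps it, phosphofructokinase commits the sugar to breakdown, and aldolase splits it. Enolase acts late in the sequence, and lactate dehydrogenase reduces pyruvate to lactate, which restores the oxidized cofactor the pathway needs. Tumor cells are known for high glycolytic flux, and transcription of many of these genes responds to hypoxia-inducible factors, MYC and mTOR complex 1.

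Values are the deposited normalized values, CPM. The paper's methods name TMM, a scaling of library sizes in edgeR, and the sample sums were near a common total but not equal. Effective depth per sample, which TMM scaling can set apart from the read total, was estimated at 9074000 to 13179000 reads. The estimate came from the smallest steps between low values. At this depth 3 reads come to 0.228 to 0.331 CPM, so that every member stood far above the limit of counting. The target was lowered: PIKFYVE stood at 101 and 97.5 CPM in the sgNC samples and at 10.9 and 12.5 CPM in the sgPIKFYVE_1 samples. Neuroendocrine and epithelial markers of the line were high, summing to 5107 to 9351 CPM over 10 genes, although NEUROD1 did not exceed 0.70 CPM. The 9 markers of blood, stromal, endothelial and liver cells summed to 4.26 to 15.1 CPM, with COL3A1 at 0 in all samples. Mitochondrially encoded genes took 6.90 to 6.91% of the values in sgNC and 8.33 to 8.42% in sgPIKFYVE_1, against 7.36 to 7.70% in the drug table, and the part of this in the results was not tested.

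The windows around the transcription start sites of the members were compared for short motifs, because many of these genes moved together in the comparisons that follow. The motif ACGTG is the core of the hypoxia response element, and the E-box CACGTG, which MYC and related factors bind, contains it. RefSeq (GRCh38.p14) gave 29 windows for the 10 members, each 300 bases long from 250 before to 50 after a start site. ACGTG, searched on both strands, lay in 11 of these 29 windows (37.9%) and in 21.4% of the 35116 windows of all genes. Windows of a gene can overlap, and PFKM windows 1 and 2 both counted for the same match of ACGTG. By gene, 7 of 10 members held it in at least 1 window, against 24.9% of 27305 genes, although a gene with more windows had more chances. It was found in no window of SLC2A1, HK1 or PFKL. The E-box CACGTG was in 4 of 29 member windows against 7.26% of all windows. The GC box GGGCGG was in 17 of 29 member windows against 45.0% of all.

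Windows with the motif are printed 5′ to 3′ on the strand of the gene, for LDHA and HK2, whose values were lowered furthest by Torin1, and for the aldolases ALDOA and ALDOC, whose rises with Apilimod differed in size. Capitals mark ACGTG or its reverse complement CACGT, and a match is only a run of letters, not a bound site. The LDHA window is chr11:18394313-18394612 (+ strand), the HK2 window chr2:74834920-74835219 (+), the ALDOA window chr16:30064247-30064546 (+) and the ALDOC window chr17:28576846-28577145 (- strand).
LDHA: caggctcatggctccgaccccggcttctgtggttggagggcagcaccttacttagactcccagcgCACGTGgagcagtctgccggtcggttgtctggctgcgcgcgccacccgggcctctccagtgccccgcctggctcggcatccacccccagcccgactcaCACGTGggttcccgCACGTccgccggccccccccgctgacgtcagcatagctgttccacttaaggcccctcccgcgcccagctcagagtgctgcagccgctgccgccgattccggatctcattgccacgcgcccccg
HK2: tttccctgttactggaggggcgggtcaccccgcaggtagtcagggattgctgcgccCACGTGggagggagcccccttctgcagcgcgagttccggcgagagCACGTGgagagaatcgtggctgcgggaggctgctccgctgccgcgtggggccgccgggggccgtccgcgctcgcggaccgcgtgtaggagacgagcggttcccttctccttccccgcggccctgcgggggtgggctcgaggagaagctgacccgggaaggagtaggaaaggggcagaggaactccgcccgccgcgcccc
ALDOA: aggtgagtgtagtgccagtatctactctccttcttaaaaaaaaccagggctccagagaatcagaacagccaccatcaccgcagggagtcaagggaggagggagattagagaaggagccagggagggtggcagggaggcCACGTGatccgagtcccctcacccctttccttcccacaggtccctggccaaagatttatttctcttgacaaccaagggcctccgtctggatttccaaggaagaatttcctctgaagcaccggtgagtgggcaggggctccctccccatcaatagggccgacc
ALDOC: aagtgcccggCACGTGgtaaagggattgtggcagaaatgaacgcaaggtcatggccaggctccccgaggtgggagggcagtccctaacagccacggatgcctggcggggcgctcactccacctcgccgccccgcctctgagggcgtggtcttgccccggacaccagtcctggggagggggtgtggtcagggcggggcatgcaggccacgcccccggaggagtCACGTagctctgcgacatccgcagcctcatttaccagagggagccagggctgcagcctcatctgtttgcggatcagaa
An E-box reads the same on both strands and so counts as 2 matches of ACGTG. LDHA held 5 matches, which came from 2 E-boxes and a single CACGT 73 bases before the start site. HK2 held 4 matches in its printed window, all from 2 E-boxes, and another 2 in its other window. ALDOC had 3 matches in its only window, from 1 E-box and a CACGT 28 bases before its start site. ALDOA had 2 in its printed window, both from 1 E-box, and 1 in each of its other windows. ENO2 carried 1 match in its only window.

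Per kilobase of transcript, LDHA and ALDOA had the highest means of the 10 members in every group, although in Torin1 LDHA (305 ± 14.4 CPM per kb, SD, n = 2) did not differ beyond its spread from PFKM (304 ± 38.3). In sgNC, LDHA stood at 1181 ± 1.81 CPM per kb (SD, n = 2) and ALDOA at 1005 ± 47.1, and in DMSO at 921 ± 24.8 and 628 ± 25.7. In the sgPIKFYVE_1 samples these neighbours in the order no longer differed beyond their spread, at 743 ± 9.94 CPM per kb for LDHA and 749 ± 45.5 for ALDOA. Which of LDHA and ALDOA came first, and the place of the other 8 members, depended on the transcript length used, and with the transcripts of the GENCODE basic set ALDOA led in sgNC at 938 against 840.3 CPM per kb. No order is therefore given. The isoform partner ENO1, which is not among the 10 members, was also abundant in sgNC, at 1969 ± 57.6 CPM per kb by the median coding transcript, 704 by the basic set and 492 by the longest transcript.

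**Figure D1:**
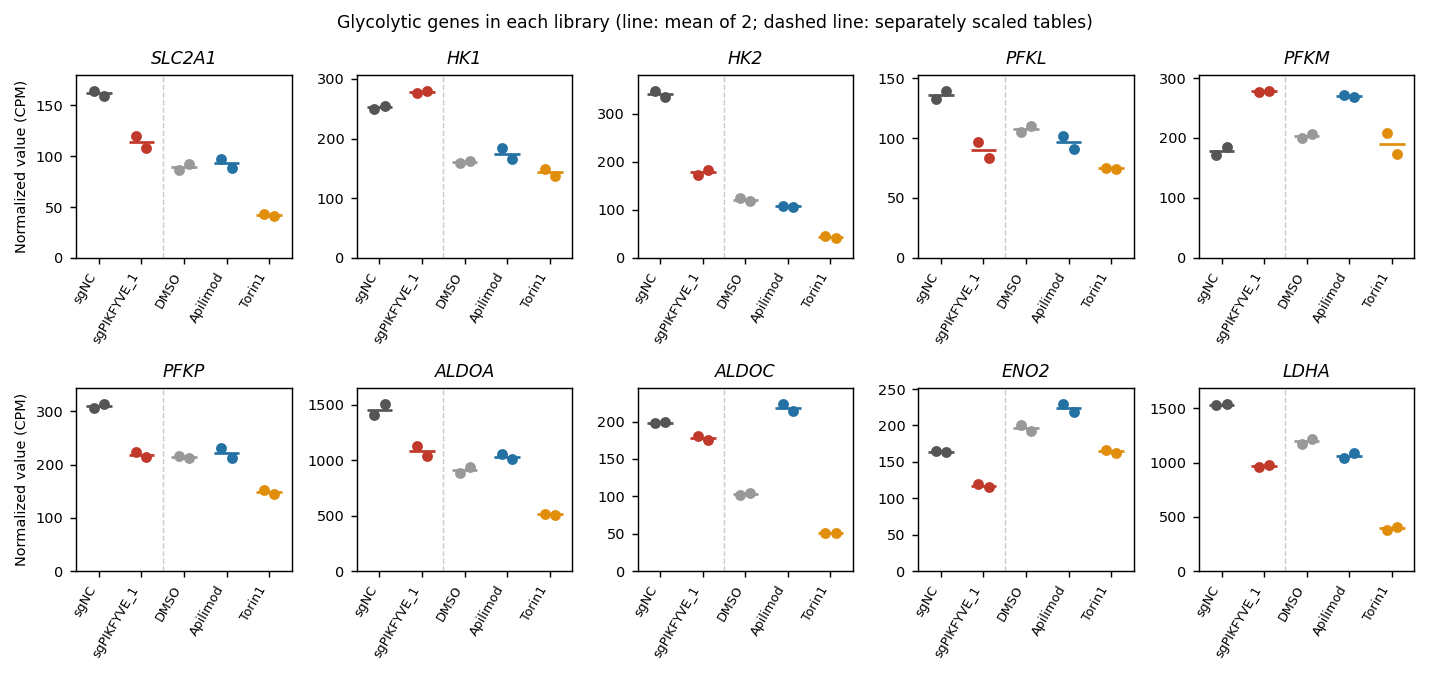
Normalized value (CPM, linear axis from 0) of each of the 10 members in each of the 10 samples, with points for samples and a short line for the mean of the 2 samples of a group. The dashed line parts the knockdown table from the separately scaled drug table. LDHA and HK2 stood lowest in Torin1 in the drug table, ALDOC stood highest in Apilimod, and PFKM stood higher in sgPIKFYVE_1 and Apilimod than in their controls.

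SLC2A1 encodes GLUT1, the basal glucose transporter (chromosome 1, 42925375 to 42959176, - strand, hg38 as GENCODE 29 places it). Its values were 164 and 159.8 CPM in the sgNC samples and 120.0 and 108 CPM in the sgPIKFYVE_1 samples. With the drugs it stood at 86.2 and 92.0 CPM in DMSO, at 97.6 and 88.9 CPM in Apilimod and at 42.9 and 40.8 CPM in Torin1. The knockdown and Torin1 samples lay below all of their controls, while Apilimod overlapped DMSO. On the log2(CPM + 1) scale, SLC2A1 fell by 0.50 with the knockdown (SE 0.061, limma adjusted p = 1.83e-06) and by 1.07 with Torin1 (SE 0.076, limma adjusted p = 1.60e-07). With Apilimod the difference was 0.06, with a 95% interval of -0.10 to 0.23 and a limma adjusted p of 0.706. Because these are bulk samples scaled to a total, fewer cells with a transcript and less of it per cell cannot be told apart, here or in any result that follows.

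HK1, the hexokinase found in most tissues (chromosome 10, 69269984 to 69401884, + strand), varied little. It stood at 249.5 and 255 CPM in sgNC and at 276 and 279 CPM in sgPIKFYVE_1. Its drug-table values were 159.9 and 163 CPM in DMSO, 184 and 166 CPM in Apilimod and 149.5 and 137 CPM in Torin1. None of its groups overlapped the control of its table, but the distances were small. The knockdown difference of 0.14 (SE 0.047, limma adjusted p = 0.0260) passed the threshold and lost it without the filter on low values, at an adjusted p of 0.0567. Over the settings that kept all samples, this difference ran from 0.08 to 0.14 and its limma adjusted p reached 0.201. The differences with Apilimod (0.11, adjusted p = 0.362) and Torin1 (-0.17, adjusted p = 0.0528) did not pass in the limma fit.

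HK2 is the inducible hexokinase that binds mitochondria and is raised in many tumors (chromosome 2, 74833981 to 74893359, + strand). It had 347 and 334 CPM in the sgNC samples and 173 and 182 CPM in the sgPIKFYVE_1 samples. In the drug experiment HK2 stood at 124 and 119 CPM in DMSO, at 108 and 106 CPM in Apilimod and at 44.9 and 42.3 CPM in Torin1. All treated samples lay below their controls, and those of Torin1 lay furthest below. HK2 fell by 0.93 with the knockdown (SE 0.050, limma adjusted p = 2.13e-11), to 52.2% of the control mean, and by 1.46 with Torin1 (SE 0.068, limma adjusted p = 2.15e-09), to 35.9%. The Apilimod difference was -0.18 (95% interval -0.33 to -0.03), with a limma adjusted p of 0.132 that did not pass.

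The 3 phosphofructokinase subunits assemble into mixed tetramers, and they did not move as a group. PFKL, the liver-type subunit (chromosome 21, 44300051 to 44327376, + strand), stood at 133 and 139 CPM in sgNC, 96.3 and 83.2 CPM in sgPIKFYVE_1, 105 and 109.8 CPM in DMSO, 102 and 91.3 CPM in Apilimod and 74.9 and 74.4 CPM in Torin1. PFKP, the platelet-type subunit (chromosome 10, 3066333 to 3137712, + strand), stood at 307 and 313 CPM in sgNC, 223 and 213 CPM in sgPIKFYVE_1, 216 and 212 CPM in DMSO, 232 and 213 CPM in Apilimod and 152 and 144 CPM in Torin1. For both subunits the knockdown and Torin1 samples were below all control samples. PFKL fell by 0.60 with the knockdown (SE 0.069, limma adjusted p = 1.06e-06) and by 0.52 with Torin1 (SE 0.071, limma adjusted p = 6.54e-05). PFKP fell by 0.50 with the knockdown (SE 0.049, limma adjusted p = 9.85e-08) and by 0.53 with Torin1 (SE 0.058, limma adjusted p = 9.62e-06). Neither passed the test with Apilimod, where PFKL differed by -0.15 (95% interval -0.31 to -0.0020, limma adjusted p = 0.228) and PFKP by 0.05 (-0.07 to 0.18, adjusted p = 0.678).

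PFKM, the muscle-type subunit (chromosome 12, 48105139 to 48146404, + strand), went the other way. It stood at 171 and 184 CPM in sgNC and at 277 and 278 CPM in sgPIKFYVE_1. In the drug table the values were 200.3 and 206 CPM in DMSO, 271 and 268 CPM in Apilimod and 207 and 174 CPM in Torin1. Both treatments aimed at PIKfyve lay above their controls in every sample, while the Torin1 samples lay on either side of DMSO. PFKM rose by 0.64 with the knockdown (SE 0.052, limma adjusted p = 8.63e-09) and by 0.41 with Apilimod (SE 0.070, limma adjusted p = 0.00173), or to 156% and 133% of the control means. The Torin1 difference was -0.10 (95% interval -0.25 to 0.05, limma adjusted p = 0.289). The Apilimod call was lost without the filter on low values, at an adjusted p of 0.0599. PFKM overlaps SENP1 on the opposite strand, which did not move with it in the knockdown (55.5 and 56.6 CPM in sgNC, 58.0 and 53.9 CPM in sgPIKFYVE_1), and whether reads were counted by strand is not stated.

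ALDOA, the main aldolase of most cells (chromosome 16, 30064164 to 30070457, + strand), was one of the most abundant members. Its values were 1405 and 1502 CPM in sgNC, and 1130.2 and 1037 CPM in sgPIKFYVE_1. In the drug table they were 882 and 935 CPM in DMSO, 1054 and 1010.1 CPM in Apilimod, and 518 and 509 CPM in Torin1. No group overlapped its control. ALDOA fell by 0.42 with the knockdown (SE 0.045, limma adjusted p = 3.67e-07) and by 0.82 with Torin1 (SE 0.042, limma adjusted p = 5.93e-09). It rose by 0.18 with Apilimod (SE 0.042, limma adjusted p = 0.0140), a call that quantile normalization ended at an adjusted p of 0.334. The entry AC093512.2 overlaps ALDOA on the same strand and took 71.6 to 198 CPM, so reads may have been split between them. Summed with it, ALDOA differed by -0.42, 0.15 and -0.86 in the knockdown, Apilimod and Torin1 comparisons.

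ALDOC, the aldolase known best from brain (chromosome 17, 28573115 to 28577264, - strand), was moved in opposite directions by the drugs, as ALDOA was, and by more. It stood at 198 and 199 CPM in sgNC, and at 181 and 175 CPM in sgPIKFYVE_1. Among the drug samples it had 102 and 104 CPM in DMSO, 223 and 214 CPM in Apilimod, and 51.2 and 51.0 CPM in Torin1. The 3 groups of the drug table were far apart, while the knockdown samples lay just below their controls. ALDOC rose by 1.07 with Apilimod (SE 0.062, limma adjusted p = 2.91e-08), to 212% of the DMSO mean, and fell by 0.999 with Torin1 (SE 0.062, limma adjusted p = 3.80e-08), to 49.6%. The knockdown lowered it by 0.16 on the log2 scale (SE 0.052, limma adjusted p = 0.0194), a call that a fit without a trend of variance on level ended at an adjusted p of 0.160.

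ENO2 encodes the gamma enolase, a long-used marker of neuroendocrine tumors (chromosome 12, 6913745 to 6923698, + strand). It had 165 and 163 CPM in the sgNC samples, and 119 and 115 CPM in the sgPIKFYVE_1 samples. Its drug-table values were 201 and 192 CPM in DMSO, 229 and 218 CPM in Apilimod, and 167 and 162 CPM in Torin1. No treated group overlapped its control. ENO2 fell by 0.48 with the knockdown (SE 0.056, limma adjusted p = 1.06e-06) and by 0.26 with Torin1 (SE 0.054, limma adjusted p = 0.00212). The Apilimod difference of 0.18 (95% interval 0.07 to 0.30) missed the threshold at a limma adjusted p of 0.0539.

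LDHA makes the subunit of lactate dehydrogenase that predominates in muscle and in many tumors (chromosome 11, 18394388 to 18408425, + strand). Its values were 1533 and 1536 CPM in sgNC and 956 and 974 CPM in sgPIKFYVE_1. DMSO samples had 1174 and 1219 CPM, Apilimod samples 1041 and 1086 CPM, and Torin1 samples 383 and 409 CPM. Every treated sample lay below every control sample of its table. LDHA fell by 1.59 with Torin1 (SE 0.044, limma adjusted p = 2.49e-11), to 33.1% of the DMSO mean, and in the order of fold changes it was the 23rd lowest of 13520 genes tested. It fell by 0.67 with the knockdown (SE 0.038, limma adjusted p = 5.11e-11) and by 0.17 with Apilimod (SE 0.044, limma adjusted p = 0.0285). The Apilimod call was lost without the filter on low values and without the trend of variance on level.

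**Figure D2:**
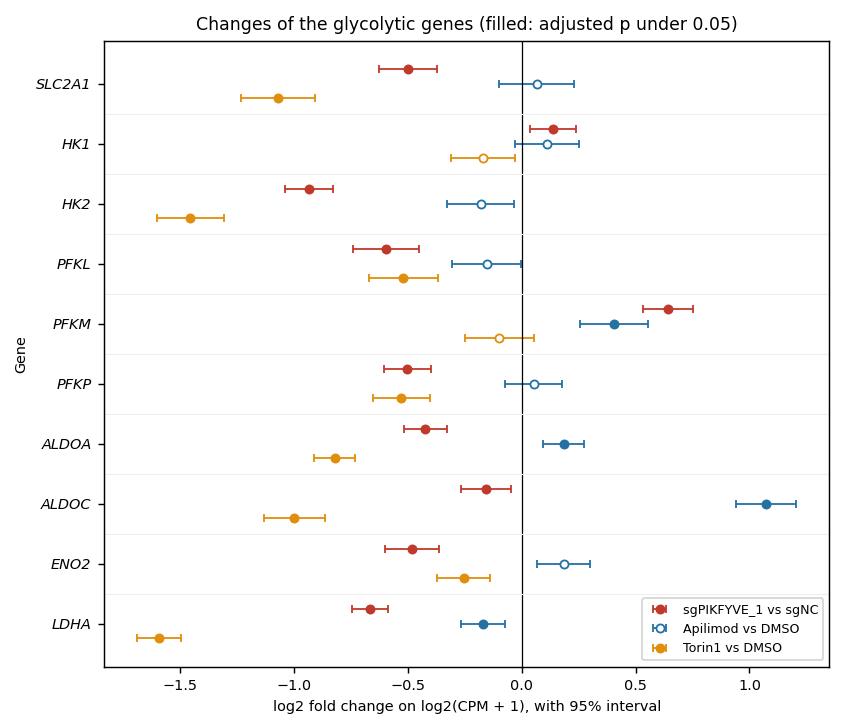
Difference from the control of the same table on the log2(CPM + 1) scale for each member, with 95% intervals from the limma fit over all genes, for sgPIKFYVE_1 (red), Apilimod (blue) and Torin1 (orange). Filled points passed an adjusted p of 0.05. The knockdown and Torin1 points lie left of 0 for 8 and 10 members, and the Apilimod points run from -0.18 for HK2 to 1.07 for ALDOC.

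Counted over the members, the knockdown lowered 8 of 10 and raised 2 (HK1 and PFKM), where 42.5% of all 13591 genes tested were called, 20.9% lower and 21.6% higher. Torin1 lowered 8 of 10 in the limma fit and raised none (0), with all 10 differences below 0, where 38.5% of all 13520 genes were called, 21.8% lower and 16.6% higher. HK1 and PFKM, the 2 that Torin1 did not move past the threshold, were the 2 that the knockdown raised. For HK1 both results lay near the threshold and changed side in other settings, so this match depends on the setting. Apilimod raised 3 (PFKM, ALDOA and ALDOC) and lowered 1 (LDHA), where 8.54% of all genes were called, 5.75% higher and 2.79% lower. The median difference of the members was -0.49 with the knockdown, 0.09 with Apilimod and -0.68 with Torin1, against -0.004, -0.006 and -0.012 over all genes. The Apilimod count rested on settings, since 1 of the 4 calls, ALDOC, was kept when low genes were not filtered out, and likewise when the variance trend was dropped. Over all genes, 67.4% of the Apilimod calls were higher, and 55.1% with quantile normalization or 54.2% with each sample rescaled to the same total.

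The Apilimod and Torin1 samples were also set against each other directly. All 10 members were higher in Apilimod than in Torin1, where 46.7% of all genes were called and 26.2% were called higher, and no sample of one group overlapped the other for any of the 10, where 38.4% of all genes stood apart in that direction. The differences ran from 0.28 for HK1 (SE 0.065, limma adjusted p = 0.00280) to 2.07 for ALDOC (SE 0.062, limma adjusted p = 5.52e-12). LDHA differed by 1.42 and HK2 by 1.28 on the log2 scale. The smaller ones were 0.37 for PFKL, 0.44 for ENO2 and 0.51 for PFKM. The knockdown was not tested against either drug, as tests were kept within a table.

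Isoforms of 1 step were compared by the log2 ratio of their values within each sample, which the scaling of the sample hardly touches. With 2 samples against 2, the exact two-sided permutation test cannot give a p below 0.333, so the separation of the groups is described. HK2 over HK1 was 0.43 ± 0.06 (SD, n = 2) in sgNC and -0.64 ± 0.04 in sgPIKFYVE_1. These ratios are not corrected for transcript length, and per kilobase HK1 was already above HK2 in sgNC, at 73.9 against 61.6 CPM per kb. In the drug table the same ratio was -0.41 ± 0.06 in DMSO, -0.70 ± 0.09 in Apilimod and -1.70 ± 0.02 in Torin1. The knockdown and Torin1 shifts in this ratio were -1.07 and -1.29, while that of Apilimod was -0.29.

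Among the phosphofructokinase subunits, PFKM gained on the others. PFKM over PFKL shifted by 1.24 with the knockdown, 0.56 with Apilimod and 0.42 with Torin1, and PFKP over PFKM by -1.15, -0.35 and -0.43, with no overlap of groups. The numerators and denominators did not move alike, since PFKM rose past the threshold in the first 2 comparisons and PFKL fell past it in the first and in that of Torin1. The ratio of PFKP over PFKL moved less, by 0.09, 0.21 and -0.01, and overlapped DMSO in Torin1.

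ALDOC over ALDOA shifted by 0.27 with the knockdown, 0.89 with Apilimod and -0.18 with Torin1, without overlap. ENO2 over ENO1, the enolase of most cells, was -2.93 ± 0.05 in sgNC and -2.93 ± 0.02 in sgPIKFYVE_1, with overlapping samples. With Torin1 it rose from -2.16 ± 0.06 in DMSO to -1.02 ± 0.06. ENO1 itself stood at 879 and 887 CPM in DMSO and at 329.8 and 341 CPM in Torin1, and fell by 1.39 on the log2 scale (SE 0.040, limma adjusted p = 2.80e-11). Under Torin1, ENO2 stood at 83.6% and ENO1 at 38.0% of their DMSO means.

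LDHA over LDHB, the subunit that predominates in heart, fell by 1.30 on the log2 scale with the knockdown, from 3.85 ± 0.001 to 2.55 ± 0.03. LDHB stood at 106 and 106 CPM in sgNC and at 159.8 and 168 CPM in sgPIKFYVE_1, a rise of 0.63 (SE 0.057, limma adjusted p = 4.64e-08). With Torin1 the ratio moved by -1.23 while LDHB itself fell by 0.37 (SE 0.068, limma adjusted p = 7.53e-04). The Apilimod shift was -0.25, and LDHB differed by 0.08 (95% interval -0.06 to 0.23, limma adjusted p = 0.538). Over the 7 isoform pairs, the groups stood apart for 6 with the knockdown, 7 with Apilimod and 6 with Torin1, while over single genes 35.4% and 35.2% stood apart higher and lower in the knockdown, 24.8% and 25.9% with Apilimod, and 32.7% and 36.6% with Torin1. The share over ratios of other gene pairs was not computed, and the phosphofructokinase ratios share genes with each other.

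**Figure D3:**
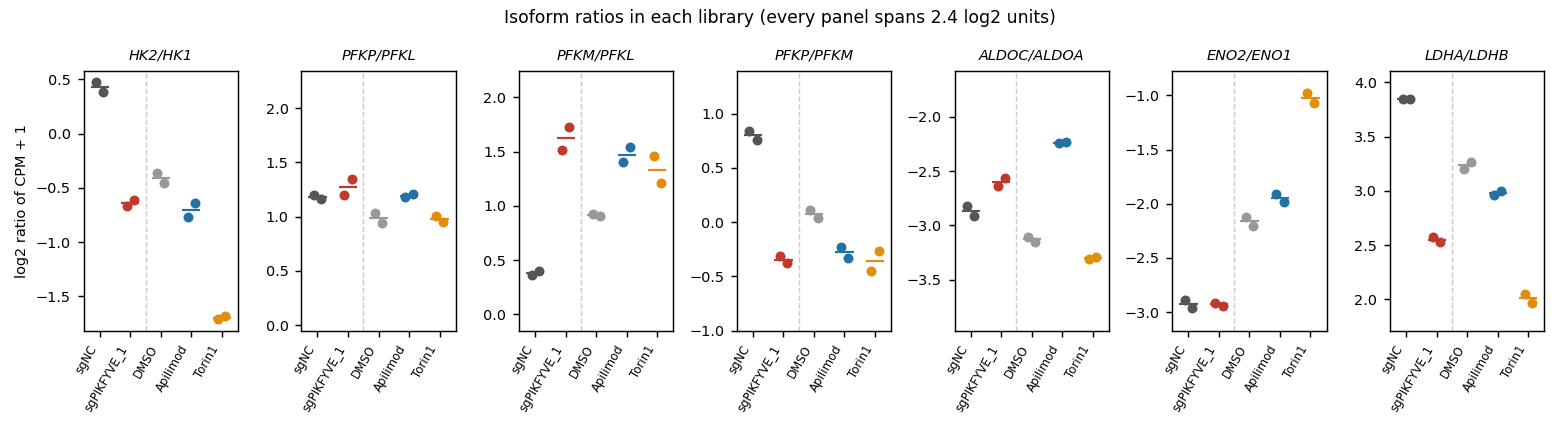
Log2 ratio of the values (CPM + 1) of 2 isoforms of 1 step in each sample, with points for samples and a line for the mean of the 2 samples of a group, every panel spanning the same range. HK2 over HK1 and LDHA over LDHB stand lower in sgPIKFYVE_1 and Torin1 than in their controls, and ENO2 over ENO1 is raised in Torin1 while its sgNC and sgPIKFYVE_1 samples overlap.

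The rest of the pathway was read from a list of 22 other glycolysis genes. Of these, 12 were tested and 10 were too low, among them the low-affinity transporter gene SLC2A2, listed at 0 in all 10 samples. The knockdown lowered 9 of 12 and raised 1 (LDHB), with a median of -0.35, where 20.9% of all genes were called lower and 21.6% higher. The largest changes beside that of LDHB were in PGK1, phosphoglycerate kinase (-0.65, SE 0.043, limma adjusted p = 3.98e-10), and in SLC2A3, the high-affinity transporter GLUT3 (-0.57, SE 0.075, limma adjusted p = 5.30e-06). Torin1 lowered 11 of 12 and raised none (0) in the limma fit, where 21.8% of all genes were called lower and 16.6% higher. All 12 differences lay below 0, with a median of -0.81. After ENO1, the largest Torin1 changes were in PGK1 (-1.20, SE 0.046, limma adjusted p = 3.91e-10) and TPI1, triose phosphate isomerase (-1.15, SE 0.040, limma adjusted p = 1.68e-10).

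Apilimod raised 2 of the 12 and lowered none (0) in the limma fit, where 5.75% of all genes were called higher and 2.79% lower. PGK1, at -0.14, was the 1 gene lowered at an unadjusted p under 0.05, and the median was -0.02. The 2 raised were SLC2A3, which had 15.2 and 20.6 CPM in DMSO and 33.0 and 28.7 CPM in Apilimod (0.76, SE 0.144, limma adjusted p = 0.00330), and ENO3, the muscle enolase (0.36, SE 0.067, limma adjusted p = 0.00300). Both stood lower in the knockdown, where ENO3 had 117 and 122.5 CPM in sgNC and 90.4 and 84.9 CPM in sgPIKFYVE_1. ADPGK, an ADP-dependent sugar kinase, followed at -0.18 without passing (limma adjusted p = 0.251). ENO3 overlaps the abundant PFN1 on the opposite strand, which had 476 to 761 CPM, and counting by strand is not stated.

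Around phosphofructokinase and pyruvate, a second list of 17 genes held the bifunctional enzymes that make and break fructose 2,6-bisphosphate, the activator of phosphofructokinase. It also held the carriers and enzymes that decide between lactate export and mitochondrial oxidation. Of 16 tested, the knockdown raised 8 and lowered 4, where 21.6% of all genes were called higher and 20.9% lower. SLC16A3, the lactate exporter MCT4, went from 42.9 and 39.0 CPM in sgNC to 7.56 and 7.55 CPM in sgPIKFYVE_1, and fell by 2.29 on the log2 scale (SE 0.126, limma adjusted p = 3.50e-11). MPC1, a subunit of the mitochondrial pyruvate carrier, went from 34.1 and 32.9 CPM to 92.8 and 94.2 CPM, a rise of 1.45 (SE 0.076, limma adjusted p = 1.49e-11). PFKFB3, a bifunctional enzyme with high kinase activity, went from 139.8 and 142 CPM to 53.4 and 50.4 CPM (-1.43, SE 0.066, limma adjusted p = 2.71e-12). The sgNC and sgPIKFYVE_1 samples of all 3 genes were far apart.

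Apilimod raised 8 of these 16 and lowered none (0) in the limma fit, where 2.79% of all genes were called lower and 5.75% higher. Within the list, the number lowered was also 0 at an unadjusted p under 0.05. PFKFB2, a bifunctional enzyme known from heart, had 27.0 and 28.8 CPM in DMSO and 77.2 and 79.4 CPM in Apilimod (1.46, SE 0.084, limma adjusted p = 3.11e-08). MPC1 rose by 1.15 (SE 0.098, limma adjusted p = 2.24e-06) and PFKFB4 by 1.14 (SE 0.113, limma adjusted p = 1.11e-05). The knockdown and the inhibitor both raised PFKFB2 and MPC1, with values of 1.05 and 1.45 in the knockdown. They parted at PFKFB4, which fell by 0.74 with the knockdown (SE 0.092, limma adjusted p = 2.85e-06). SLC16A3 was already low in DMSO, at 2.63 and 3.23 CPM, and its Apilimod values of 2.13 and 1.66 CPM gave a difference of -0.44 that did not pass (limma adjusted p = 0.352).

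Torin1 lowered 10 of the 16 and raised 3, where 21.8% of all genes were called lower and 16.6% higher. SLC16A3 had 0.65 and 0.43 CPM in Torin1, a few reads per sample (-1.35, SE 0.252, limma adjusted p = 8.43e-04). PFKFB4 went from 18.8 and 18.6 CPM to 6.99 and 7.24 CPM (-1.28, SE 0.113, limma adjusted p = 1.38e-06). PDK4, a kinase that shuts off pyruvate dehydrogenase, went from 190.2 and 192 CPM to 398 and 436 CPM (1.12, SE 0.055, limma adjusted p = 3.64e-09). The directions within this list were therefore mixed in the knockdown and Torin1 comparisons and upward among the genes Apilimod moved. In the direct comparison of the drugs, 13 of 16 were higher in Apilimod and 3 lower, led by PFKFB4 at 2.42 (SE 0.113, limma adjusted p = 9.44e-10) and MPC1 at 1.94 (SE 0.098, limma adjusted p = 1.95e-09). Between the drugs, 26.2% of all genes were called higher in Apilimod and 20.5% lower.

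**Figure D4:**
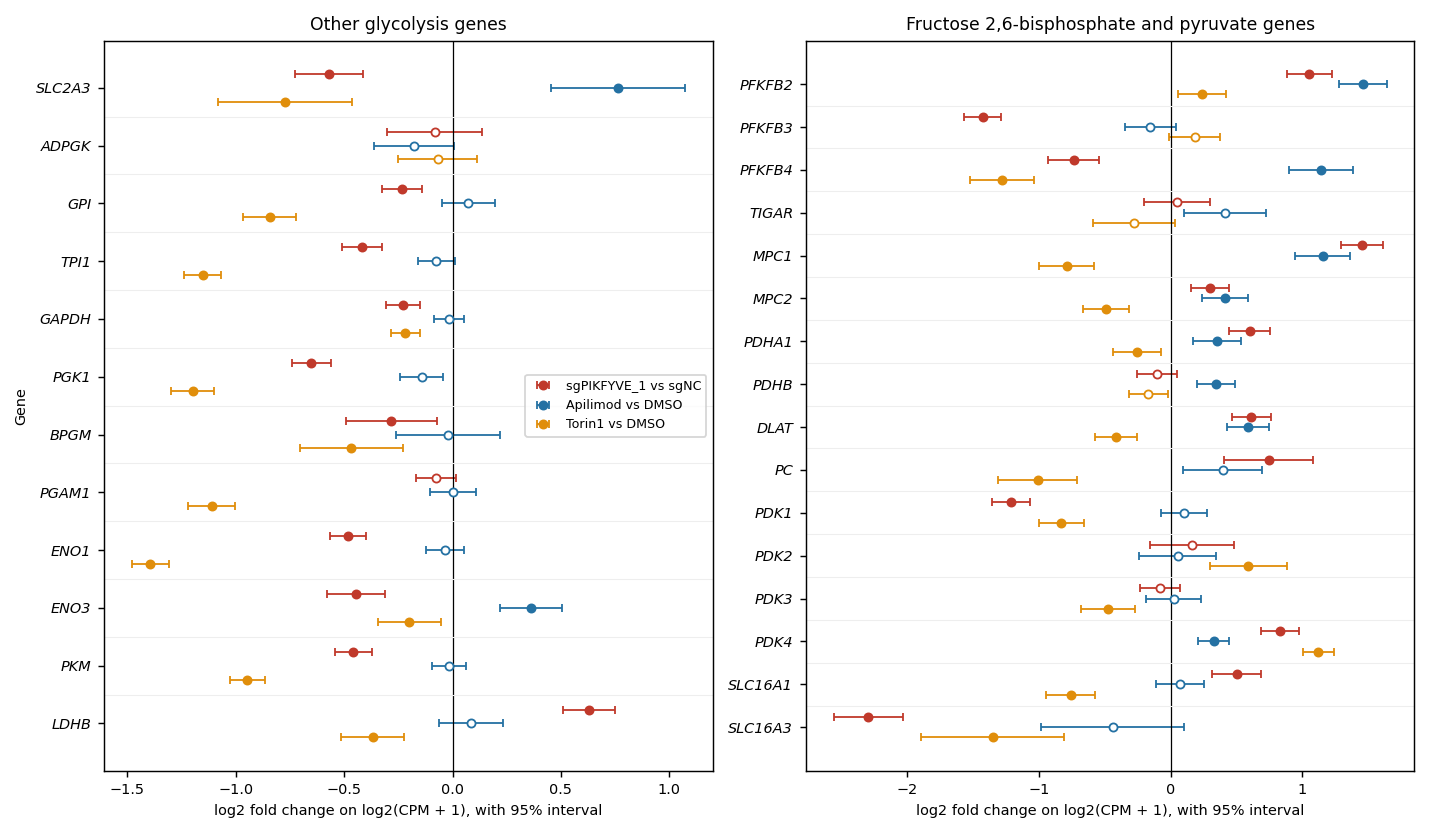
Difference from the control of the same table on the log2(CPM + 1) scale, with 95% intervals from the limma fit over all genes, for the tested genes of the 2 other lists, in sgPIKFYVE_1 (red), Apilimod (blue) and Torin1 (orange), with points filled where the adjusted p was under 0.05. In the first panel 11 of 12 genes were lowered by Torin1, where 21.8% of all genes were called lower. In the second, MPC1 and PFKFB2 stood right of 0 in both sgPIKFYVE_1 and Apilimod.

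Of 6 genes for the reverse pathway, gluconeogenesis, found in the data, 3 were high enough to be tested. None (0) passed in the limma fits of the knockdown or Apilimod comparisons, where 42.5% and 8.54% of all genes were called. Of the 3, 1, G6PC3 in the knockdown, had an unadjusted p under 0.05 (0.20, unadjusted p = 0.0221 and limma adjusted p = 0.0518). Torin1 lowered FBP1, fructose bisphosphatase (-0.34, SE 0.080, limma adjusted p = 0.00399), and G6PC3, a glucose phosphatase subunit (-0.21, SE 0.075, limma adjusted p = 0.0367). The mitochondrial enzyme gene PCK2 differed by 0.11 with Torin1 and did not pass.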

How the data were processed

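RNA-seq values of QGP-1 cells came from 2 deposited tables, 1 for the knockdown (4 samples) and 1 for the drugs (6 samples). Per the labels, ribosomal RNA was removed enzymatically, while the molecule is given as polyA RNA and the paper's methods describe oligo(dT) beads. The submitters' processing notes name hg38, bcl2fastq 2.20, FastQC, Trimmomatic, edgeR and DESeq2, and the read counter, its strand setting and the gene annotation are not given in the sources used here. The authors deposited normalized values that their column names call CPM. The deposited values are treated as a normalized signal, because sample sums ranged from 972493 to 1024332, and since 65.2 to 69.2% of low values came out as whole reads (tolerance 0.05), counts were not recovered and no count model was used.

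Groups were compared within a table with limma 3.58.1 (R 4.3.3) on log2(CPM + 1), with an empirical Bayes variance trend, over genes whose mean reached 1 CPM. The drug fit held all 3 groups. P-values were adjusted by the Benjamini-Hochberg method over all genes tested, with a threshold of 0.05. Fold changes on this scale understate the change of low genes. The fit was tested on simulated data. Isoform ratios were compared with exact two-sided permutation tests. Lengths and positions came from GENCODE 29 and start-site windows from RefSeq GRCh38.p14, and no coordinate was moved between builds. Pseudogene entries of LDHA, ALDOA, HK2 and ENO1 (13 in the tables) did not exceed 0.828 CPM.

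The members and the lists were chosen with earlier results of these data known. Genes named were all 10 members, the isoform partners ENO1 and LDHB and, from each list and comparison, the 3 tested genes with the largest absolute log2 fold change. Genes overlapping a member were named for that overlap, and values of a gene named in 1 comparison were repeated in others. Alternatives were another pseudocount (0.1), no filter, quantile normalization, rescaling, a replicate block, no variance trend and each sample left out. In the drug table a fit of only the compared groups was another. Chosen after seeing the data were ALDOA summed with its overlapping entry and another transcript length. Same-numbered samples did not deviate together throughout, so the numbers were not taken as pairs.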

Additional observations from a re-analysis of the deposited data

Results flagged for a closer look

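For 3 members, every sgPIKFYVE_1 sample moved one way from its controls and every Apilimod sample the other way, where 11.8% of the 13235 genes tested in both tables stood apart in opposite directions. ALDOA differed by -0.42 with the knockdown and by 0.18 with Apilimod on the log2(CPM + 1) scale. Its Apilimod call was lost with quantile normalization (limma adjusted p = 0.334). ALDOC differed by -0.16 with the knockdown and by 1.07 with Apilimod. Its knockdown call was lost without the variance trend (limma adjusted p = 0.160). ENO2 differed by -0.48 with the knockdown and by 0.18 with Apilimod, which did not pass (limma adjusted p = 0.0539). The difference between the knockdown and the inhibitor was not tested for any of them, as tests were kept within a table.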

How the results depend on the processing

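Over the members' fold changes and alternatives, 458 values kept their direction and side of the threshold, 23 lost the call, 10 gained it and 3 reversed. With the replicate block, no variance trend or no filter, the fold change is the same by construction, and only the call could change. In the drug table this also holds for a fit of only the compared groups and for leaving out a sample of the group not compared. The reversed values lay near 0 and came from leaving out a sample. SLC2A1 with Apilimod ranged from -0.0022 (without Apilimod replicate 1) to 0.13, PFKP with Apilimod from -0.0093 (without the same sample) to 0.11, and PFKM with Torin1 from -0.23 to 0.029 (without Torin1 replicate 2). Of the 4 Apilimod calls among the members, 1 remained without the filter and 1 without the variance trend, and 2 to 5 with a sample left out (2 without DMSO replicate 1 and 2 without Apilimod replicate 1). Over all genes the Apilimod count went from 1155 to 565 without the filter and to 466 without the trend, and ran from 596 to 1315 with a sample left out. The knockdown count went from 5772 to 3709 without the trend. Among the members, 5 knockdown values lost the call in settings that kept all samples, all of them for HK1 or ALDOC. With the replicate number as a block, the Apilimod count was 1756, the members called were 10 in the knockdown, 5 with Apilimod, 9 with Torin1 and 10 between the drugs, and ENO2 with Apilimod (limma adjusted p = 0.00913) and HK1 with Torin1 (limma adjusted p = 0.0148) passed, while same-numbered samples correlated at 0.0017 in the knockdown and at 0.079 to 0.264 in the drug table. By transcript length, 3 members kept their place in the sgNC order with the longest transcript and 2 with the GENCODE basic set, and in DMSO 3 and 5. The cause of these shifts was not tested. The 2 samples a group and the unknown counts limit the precision.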

Other observations

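Known regulators of glycolytic transcription were read from a list of 10 genes, of which 9 were tested. The knockdown raised 2 and lowered 5, Apilimod raised 4 and lowered 2, and Torin1 raised 4 and lowered 1, where 42.5%, 8.54% and 38.5% of all genes were called in these comparisons. TXNIP, an arrestin-like protein that restrains glucose uptake and is itself induced by glucose, stood at 1802 and 1815 CPM in sgNC and at 517 and 567 CPM in sgPIKFYVE_1. In the drug table TXNIP had 675 and 678 CPM in DMSO, 317 and 321 CPM in Apilimod and 1435 and 1494 CPM in Torin1. It fell by 1.74 on the log2 scale with the knockdown (SE 0.044, limma adjusted p = 2.78e-16) and by 1.08 with Apilimod (SE 0.040, limma adjusted p = 1.71e-10), and it rose by 1.11 with Torin1 (SE 0.040, limma adjusted p = 2.05e-10).

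Its relative ARRDC4 moved in the same directions, by -1.04 with the knockdown (limma adjusted p = 5.17e-10), -0.65 with Apilimod (adjusted p = 6.03e-05) and 0.70 with Torin1 (adjusted p = 9.99e-06). MYC rose by 0.61 with the knockdown (limma adjusted p = 9.69e-07) and by 0.57 with Torin1 (adjusted p = 1.97e-05). MLXIPL, the glucose-responsive factor ChREBP, was low, at 2.54 and 2.41 CPM in DMSO, and had 9.32 and 10.3 CPM in Apilimod, a rise of 1.63 (SE 0.198, limma adjusted p = 7.97e-05). In the knockdown MLXIPL stood the other way, at 5.56 and 6.58 CPM in sgNC and 3.07 and 4.43 CPM in sgPIKFYVE_1. SLC2A3 stood at 117 and 112 CPM in sgNC and at 15.2 and 20.6 CPM in DMSO, and as the tables were scaled separately this gap was not tested.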
